A study of Homo sapiens with 6 samples.

Results

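Receptor tyrosine kinases are the cell-surface proteins through which growth factors and contact with neighbouring cells or matrix reach the inside of a cell. The genes described here are 57 receptor tyrosine kinase genes of 21 subfamilies, chosen by gene symbol from a gene table of 46427 genes. RNA was sequenced from MDA-MB-231, a line of human breast cancer cells that form metastases, after treatment with control-siRNA (3 libraries) or with a pool of siRNAs against WWTR1, the gene of the transcriptional co-activator TAZ (TAZ-siRNA, 3 libraries). Each library came from a separate cell preparation, all cells were of this 1 line, and the libraries were made from polyadenylated RNA with strand information. The siRNA dose and the treatment time of the sequenced cells are not given in the sources used here. The question was which receptors the cells express and which of them change when TAZ is knocked down.

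A receptor tyrosine kinase has a ligand-binding part outside the cell, a single stretch through the membrane and a kinase domain inside. Binding of the ligand brings receptors together, the kinases phosphorylate each other on tyrosine, and adaptors such as SHC and GRB2 pass the signal on to RAS and ERK or to PI3 kinase and AKT. Cells limit the signal through ubiquitin ligases, phosphatases and feedback inhibitors. MDA-MB-231 belongs to the triple-negative breast cancers, which lack the oestrogen and progesterone receptors and carry no amplified ERBB2, and it is known for abundant EGFR and AXL. TAZ has no DNA-binding domain and acts on genes mainly through TEAD transcription factors.

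The knockdown was seen in every library. WWTR1 was at 192, 189.7 and 190.0 CPM (counts divided by the TMM-normalized library size, on a shared scale) with control-siRNA and at 17.3, 17.0 and 15.1 CPM with TAZ-siRNA, which is 8.64% of control-siRNA (log2 fold change -3.53 ± 0.06 SE, n = 3 per group, adjusted p = 2.47e-10, edgeR). Total counts per library ranged from 48307548 to 71749634, and 3 counts corresponded to 0.0411 to 0.0618 CPM. The carcinoma and mesenchymal genes KRT8, KRT18, VIM, CD44 and FN1 were abundant, ESR1 and PGR were at 0.0895 CPM or less in every library, and the leukocyte genes PTPRC and CD3E and the fibroblast gene DCN had no count. Of the endothelial genes, PECAM1 was at 4.15 to 6.29 CPM and CDH5 at 1.31 to 2.15 CPM. Their part in the results was not tested.

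Levels of different genes are given in TPM (a scale that allows for gene length and sums to the same total in each library), and a gene was called expressed at 1 TPM or more in each of the 3 control-siRNA libraries. By this rule 25 of the 57 receptors were expressed with control-siRNA and the same number with TAZ-siRNA, against 29.0% of all 46427 genes with control-siRNA. The 46427 genes include non-coding genes and pseudogenes, so they are not a set like the receptors. The FGFR, TAM and EPHB subfamilies each had 3 expressed members, and the VEGFR, Trk, MuSK, TIE, RET and ROS subfamilies had none. The 3 most abundant receptors each exceeded 100 TPM on average, and 10 exceeded 20 TPM.

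EPHA2, an ephrin receptor, had the highest level. It stood at 284, 282 and 263 TPM with control-siRNA. AXL, the receptor of GAS6, followed at 232, 225 and 208 TPM. EGFR, the receptor of EGF and TGFA, was at 143, 140.4 and 129 TPM, and these 3 ranges did not overlap.

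MET, the receptor of hepatocyte growth factor, came next at 61.4, 58.8 and 53.5 TPM, and RYK, a kinase-dead Wnt receptor, at 46.8, 48.6 and 44.5 TPM. Both ranges stood apart from their neighbours. Below them FGFR1, EPHB4 and DDR1 lay together at 24.5 to 27.4 TPM, and neighbours within this group overlapped. PTK7 and ERBB2 also overlapped, at 19.7 to 22.2 TPM. From LMTK2 (13.2 to 15.1 TPM) down through IGF1R, MERTK, ROR1, FGFR4 and MST1R to EPHB2 (9.12 to 10.7 TPM), each gene overlapped the next one. STYK1, TYRO3, EPHA4, INSR, PDGFRB, LTK, FGFR3 and EPHB3 completed the expressed receptors, with EPHB3, an ephrin-B receptor, lowest at 1.89 to 2.09 TPM.

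**Figure D1:**
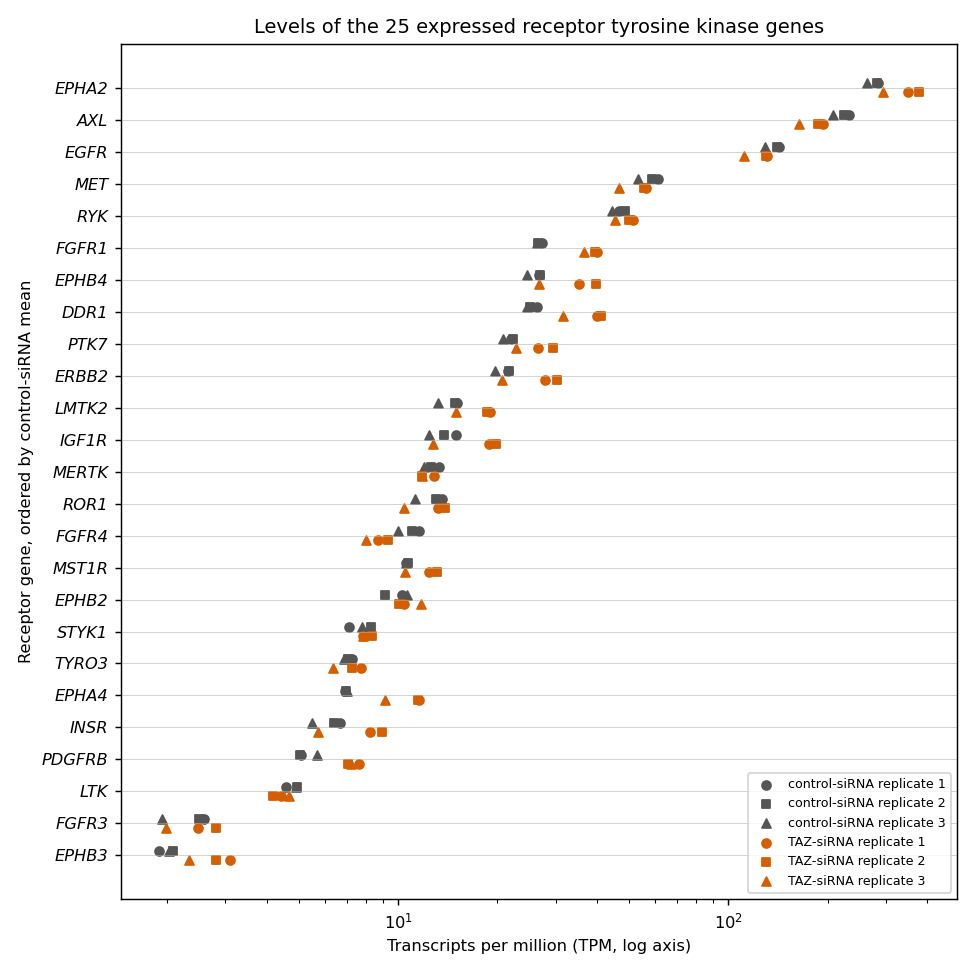
TPM of the 25 expressed receptor genes on a log axis, with 1 point per library (grey, control-siRNA; orange, TAZ-siRNA; marker shape, replicate). EPHA2, AXL and EGFR lie above 100 TPM in every library, EPHA2 is higher and AXL lower in all TAZ-siRNA libraries than in the controls, and replicate 3 is the lowest TAZ-siRNA library for many genes.

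The 32 other receptors were below this level, and 17 of the 57 stayed under 0.1 TPM in all 6 libraries. FLT1, a VEGF receptor, and EPHA3, an ephrin receptor, had no count in any library. The tests could be run on 41 receptors, and the largest count of an untested one in any library was 14. The 16 untested receptors were INSRR, FLT3, FLT1, FLT4, FGFR2, NTRK3, MUSK, TEK, EPHA1, EPHA3, EPHA6, EPHA8, RET, ROS1, ALK and AATK.

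With TAZ-siRNA the receptors summed to 1108, 1139 and 932 TPM, against 1028, 1011 and 941 TPM with control-siRNA, so the groups overlapped in the total. The make-up of that total differed. EPHA2 held 27.6 to 27.9% of it in the control-siRNA libraries and 31.7 to 33.3% in the TAZ-siRNA libraries. AXL held 22.1 to 22.6% in the control-siRNA libraries against 16.5 to 17.5% in the TAZ-siRNA libraries.

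The share of EGFR was 13.7 to 13.9% in the control-siRNA libraries against 11.4 to 12.01% in the TAZ-siRNA libraries, while that of MET was 5.68 to 5.98% and 4.87 to 5.08%. The share of RYK overlapped between the groups, at 4.55 to 4.81% and 4.39 to 4.87%. Shares of the same total depend on each other, so a larger EPHA2 share leaves less for the rest. In TPM itself EGFR (129 to 143 and 112 to 131) and MET (53.5 to 61.4 and 46.6 to 56.3) overlapped between the groups. Within each library the ratio of EPHA2 to EGFR TPM, which does not depend on library size, was 1.99 to 2.03 in the controls and 2.64 to 2.92 after knockdown. The same ratio to AXL was 1.22 to 1.26 in the control-siRNA libraries against 1.80 to 2.02 in the TAZ-siRNA libraries. Both ratios set a receptor whose share was higher with TAZ-siRNA over 1 whose share was lower, so they restate those shares. With 3 libraries against 3, an exact permutation test of a single ratio cannot give a two-sided p under 0.1.

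Of the 41 tested receptors, 18 passed an adjusted p of 0.05 (edgeR, Benjamini-Hochberg over all 16966 genes tested), which is 43.9%, beside 22.1% of all genes tested. There were 14 receptors that rose and 4 that fell, beside 11.9% and 10.2% of all genes. The median log2 fold change of the 41 was 0.22, and that of all genes tested was -0.01. A positive log2 fold change was found for 27 of the 41 (65.9%) and for 49.2% of all genes. Only 4 of the 18 changed by 1.5-fold or more (beside 4.42% of all genes), namely EPHA5, EPHB1, EPHB6 and LMTK3, and all 4 were below 1 TPM in every control-siRNA library. Leaving out EPHB6 and TIE1, which were over the low-count filter's cutoff (0.168 CPM) in 1 group only, 17 of 39 passed (43.6%). In RNA from whole cultures, fewer cells with a receptor and less RNA per cell cannot be told apart.

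**Figure D2:**
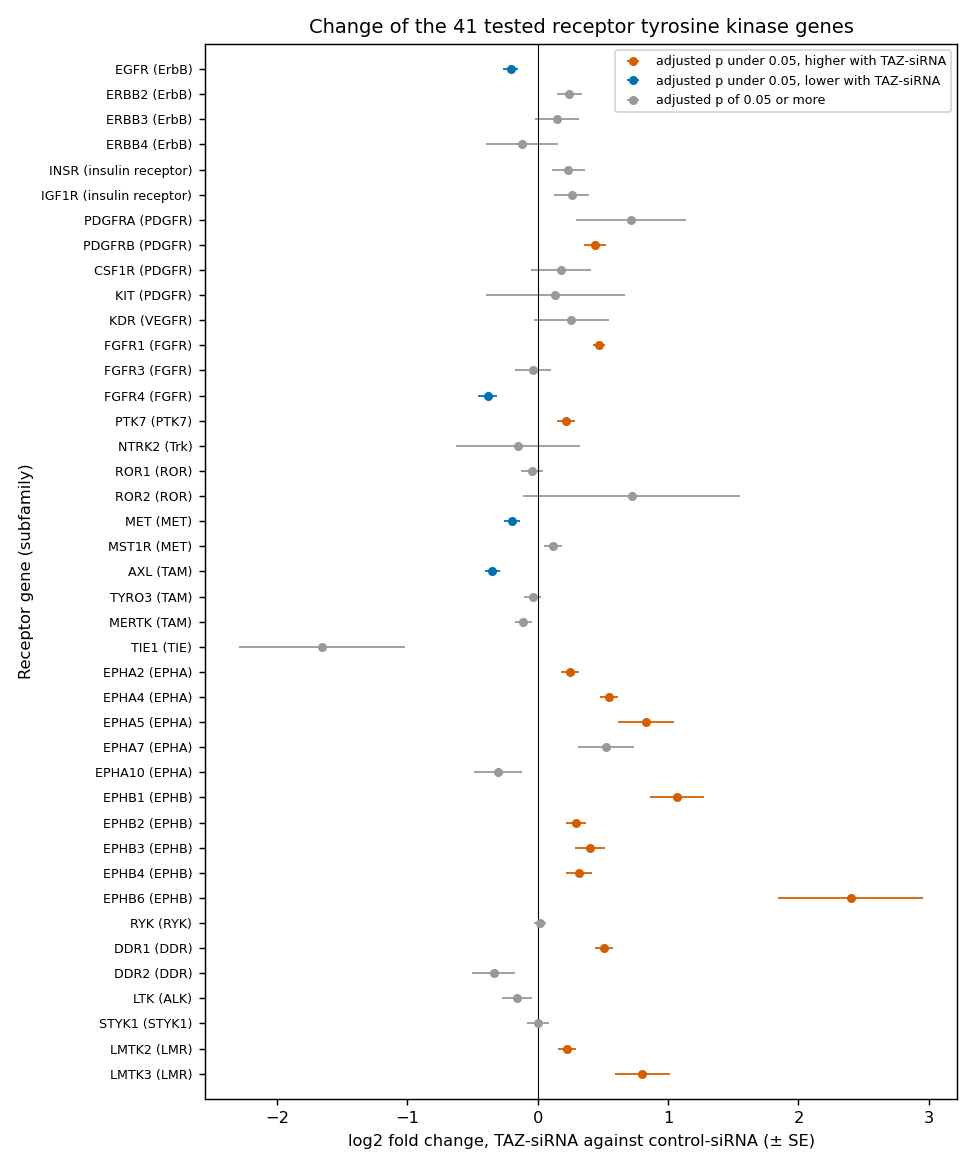
The log2 fold change of each of the 41 tested receptors with its standard error, in subfamily order (orange, rose; blue, fell; grey, adjusted p of 0.05 or more). All 5 EPHB genes lie to the right of zero, EGFR, FGFR4, MET and AXL to the left, and the low-count genes TIE1, ROR2, EPHB6 and KIT have the widest errors.

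Control-siRNA and TAZ-siRNA libraries were fully apart in CPM for 21 of the 41 receptors (51.2%, beside 39.6% of all genes tested), 14 with TAZ-siRNA higher (20% of all genes) and 7 lower (19.6%). In TPM 13 of the 41 were apart, beside 35.1% of all genes, 10 with TAZ-siRNA higher (21.7% of all genes) and 3 lower (13.5%), so the count in TPM does not exceed the background. The fit was repeated 6 times with 1 library left out, and 8 receptors passed in every one, PDGFRB, FGFR1, FGFR4, AXL, EPHA4, EPHB1, EPHB6 and DDR1 (19.5% of those tested, beside 9.53% of all genes). The other 10 lost the call in at least 3 of the 6 fits. EPHB6 and TIE1, over the filter's cutoff in 1 group only, are counted among the 21 and the 13, and EPHB6 among the 8.

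Over all genes tested, the root mean square deviation of log2 CPM from the group mean was 0.221 to 0.243 in the control-siRNA libraries. It was 0.222, 0.244 and 0.256 in TAZ-siRNA replicates 1, 2 and 3. Among the receptors that passed, TAZ-siRNA replicate 3 differed in level from the other TAZ-siRNA libraries. For 11 of the 14 receptors that rose it was the TAZ-siRNA library nearest to the control mean, while for all 4 that fell it was the farthest. Without it 23 receptors passed (33.7% of all genes passed in that fit), the 18 above and ERBB2, INSR, IGF1R, MST1R and EPHA7. Without control-siRNA replicate 1, 2 or 3, or TAZ-siRNA replicate 1 or 2, the numbers were 10, 8, 8, 9 and 8 receptors, beside 13.1, 11.2, 12.1, 11.9 and 15.3% of all genes. Size factors of DESeq2, upper-quartile factors and a GC and length correction each left 18 receptors, beside 22.1, 22.0 and 29.6% of all genes. The DESeq2 test, no filter and a filter of 10 counts in every library each left 17, beside 23.8, 12.6 and 24.6%. limma on FPKM with a pseudocount of 1 or 0.1 and on TPM left 8, 9 and 8, beside 16.6, 16.7 and 15.0%, and an adjusted p under 0.01 left 7, beside 10.1%.

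**Figure D3:**
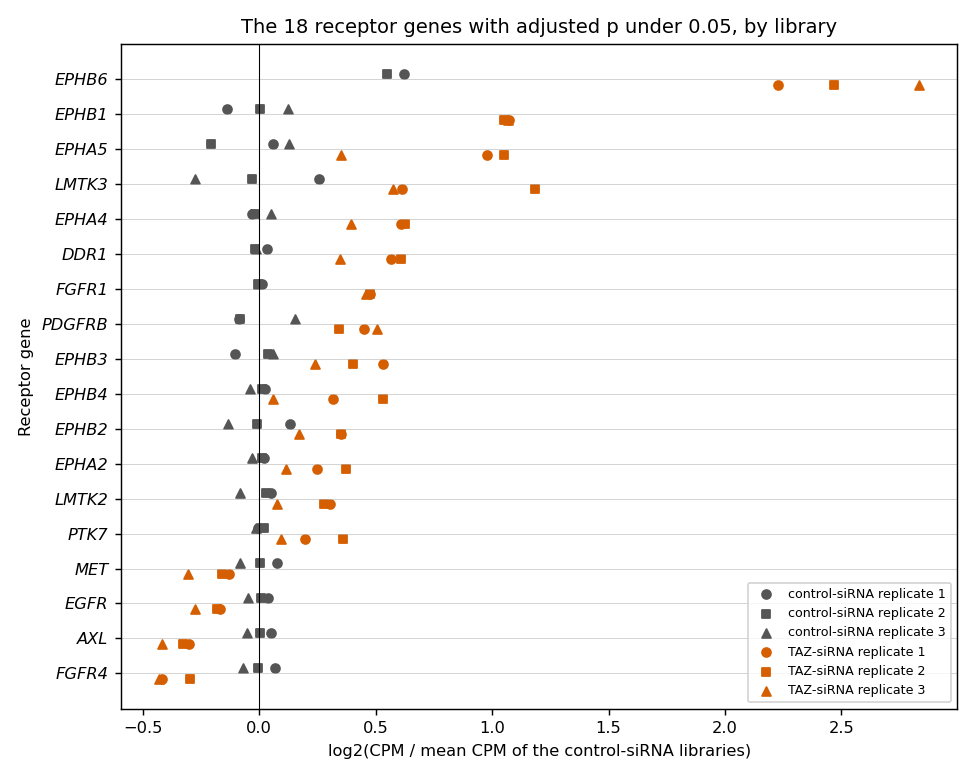
The log2 of CPM over the mean CPM of the control-siRNA libraries, for the 18 receptors that passed the test (1 point per library; the control-siRNA library of EPHB6 with no count is not drawn). For most genes that rose, TAZ-siRNA replicate 3 (orange triangle) lies closest to the grey control points, and for EGFR, MET and AXL it lies farthest below them.

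Of the 14 receptors that rose, 8 were ephrin receptors. These bind ephrins, ligands held in the membrane of a neighbouring cell, and guide cell positioning and repulsion. Of 14 EPHA and EPHB genes, 10 could be tested and 8 were higher at an adjusted p under 0.05, beside 11.9% of all genes, while none was lower. Without EPHB6, which entered the test only through the TAZ-siRNA libraries, 7 of 9 were. Only EPHA4, EPHB1 and EPHB6 passed in all 6 fits without 1 library. The summed level of all 14 EPHA and EPHB genes was 331, 329 and 309 TPM with control-siRNA and 414, 446 and 347 TPM with TAZ-siRNA, without overlap. EPHA2 made up most of it. Without EPHA2 the sum was 47.2, 46.5 and 45.9 TPM with control-siRNA and 62.9, 66.5 and 51.7 TPM with TAZ-siRNA.

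EPHA2 (gene identifier 1969, GRCh38 chromosome 1, 16124337 to 16156104) was at 508, 505 and 489.5 CPM with control-siRNA and at 594, 647 and 542 CPM with TAZ-siRNA. All TAZ-siRNA libraries were above all control libraries, and the mean was 119% of control-siRNA (log2 fold change 0.25 ± 0.07 SE, adjusted p = 0.028, edgeR). The call was lost in 5 of the 6 fits without 1 library, and it stayed only without TAZ-siRNA replicate 3. A long non-coding gene that overlaps EPHA2, LOC101927479, had 454 counts in all against 194597 for EPHA2.

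EPHA4 (gene identifier 2043, chromosome 2, 221418027 to 221574202), which binds ephrins of both the A and the B class, was at 20.5, 20.6 and 21.6 CPM with control-siRNA. It rose to 31.9, 32.2 and 27.5 CPM with TAZ-siRNA, 146% of control-siRNA (log2 fold change 0.55 ± 0.07 SE, adjusted p = 0.000669, edgeR). The change passed the test without each library in turn. TAZ-siRNA replicate 3 was the lowest of its group and still above every control.

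EPHA5, a receptor best known from the nervous system, was at 1.08, 0.900 and 1.13 CPM with control-siRNA and at 2.04, 2.15 and 1.32 CPM with TAZ-siRNA (log2 fold change 0.83 ± 0.22 SE, adjusted p = 0.0208, edgeR). Replicate 3 was close to the controls, in TPM the groups overlapped, and the call held in 1 of the 6 fits without 1 library. The span of EPHA5 also holds the ribosomal protein pseudogene RPL6P10, with 4818 counts against 512 for EPHA5, and whether counting used strand is not stated, so reads of overlapping genes could be divided wrongly. EPHA7 (1.03 to 1.24 CPM with control-siRNA, 1.16 to 1.93 with TAZ-siRNA, adjusted p = 0.109) and EPHA10 (0.905 to 1.09 CPM with TAZ-siRNA, below all 3 controls, adjusted p = 0.272) did not pass, and EPHA1, EPHA3, EPHA6 and EPHA8 were too low to test.

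All 5 EPHB genes passed the test with TAZ-siRNA higher, 1 of them (EPHB6) with a limit given beside its values. EPHB4, the receptor of EFNB2, was the most abundant of them. It was at 53.0, 52.5 and 50.6 CPM with control-siRNA and at 64.9, 75.2 and 54.2 CPM with TAZ-siRNA (124% of control-siRNA, log2 fold change 0.31 ± 0.10 SE, adjusted p = 0.0486, edgeR). TAZ-siRNA replicate 3 exceeded the highest control by a small margin in CPM and lay within the control range in TPM, and the call held in 1 of 6 fits without 1 library. EPHB4 overlaps SLC12A9, a cation chloride cotransporter gene with 8500 counts against 20726.

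EPHB2, a receptor that also reverses the direction of the signal into the ephrin-bearing cell, was at 38.7, 35.1 and 32.2 CPM with control-siRNA and at 45.1, 45.1 and 39.8 CPM with TAZ-siRNA (log2 fold change 0.29 ± 0.08 SE, adjusted p = 0.0228, edgeR). In TPM the groups overlapped, at 9.12 to 10.7 and 10.1 to 11.8, and limma on TPM gave an adjusted p of 0.529. EPHB3 was at 3.64, 4.02 and 4.08 CPM with control-siRNA and at 5.65, 5.17 and 4.62 CPM with TAZ-siRNA (132% of control-siRNA, adjusted p = 0.0321, edgeR). The calls for these genes held in 2 and 1 of the 6 fits without 1 library.

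The remaining EPHB genes were scarce. EPHB1 had 32, 33 and 28 counts with control-siRNA and 81, 54 and 62 with TAZ-siRNA. It rose to 209% of control-siRNA (log2 fold change 1.07 ± 0.21 SE, adjusted p = 0.00508, edgeR) and held in all 6 fits without 1 library, but its span overlaps the centrosomal gene CEP63, with 6689 counts against 290. EPHB6, which lacks kinase activity, had 9, 8 and 0 counts with control-siRNA and 30, 24 and 35 with TAZ-siRNA (log2 fold change 2.40 ± 0.56 SE, adjusted p = 0.0122, edgeR). EPHB6 entered the test only through the TAZ-siRNA libraries, since all 3 controls were under the filter's cutoff of 0.168 CPM, so a difference was built into its selection. The call was lost with a filter of 10 counts in every library, and DESeq2 gave no adjusted p.

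EPHA4 was also described by its transcripts, of which the deposited table lists 4. They begin at 2 sites 1898 bases apart, at chromosome 2 positions 221574202 (1 transcript, upstream) and 221572304 (3 transcripts, downstream). The upstream transcript was at 5.08, 5.61 and 5.31 TPM with control-siRNA and at 2.004, 4.20 and 3.88 TPM with TAZ-siRNA. The downstream transcripts were at 1.82, 1.32 and 1.69 TPM with control-siRNA and at 9.57, 7.31 and 5.23 TPM with TAZ-siRNA.

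The share of EPHA4 from the downstream site was thus 26.3, 19.1 and 24.1% with control-siRNA and 82.7, 63.5 and 57.4% with TAZ-siRNA, without overlap. This gene was singled out after its values were seen, and the shares were not tested. Division of reads among transcripts by the authors' software is imprecise. Among the 25 expressed receptors the leading transcript was the same in all 6 libraries for 10 and differed between libraries for 15. EGFR and EPHA2 were stable, with leading transcripts at 97.7 to 99.9% and 87.3 to 92.9%, while DDR1 and FGFR1 had leading shares of 17.0 to 41.7% and 18.7 to 48.5% with changing leaders.

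**Figure D4:**
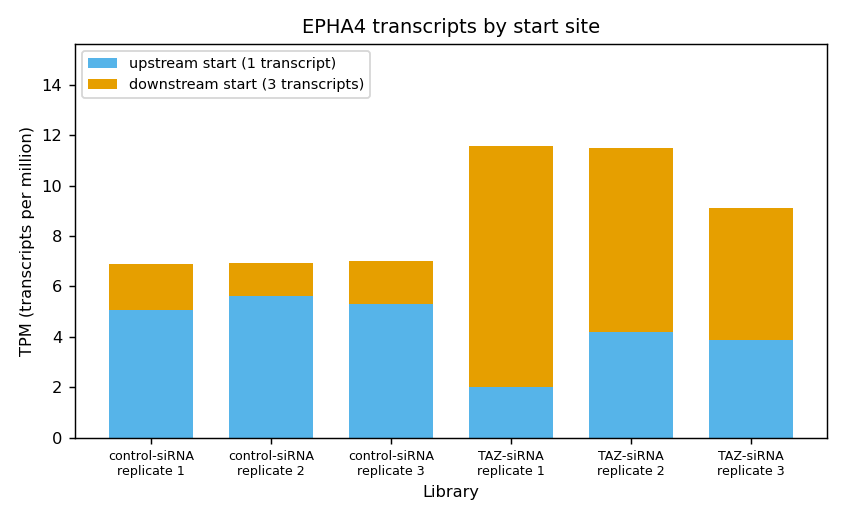
TPM of EPHA4 transcripts in each library, stacked by their start site (blue, upstream; orange, downstream). The downstream site gives 1.32 to 1.82 TPM in the control-siRNA libraries and 5.23 to 9.57 TPM in the TAZ-siRNA libraries, and the upstream site is lower in all TAZ-siRNA libraries.

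The 4 receptors that fell were EGFR, MET, AXL and FGFR4. Of these EGFR, MET and AXL were also among the 4 most abundant receptors, which together made 69.5 to 70.1% of the receptor total in the controls and 66.0 to 66.2% after knockdown. AXL belongs to the TAM subfamily, whose members bind GAS6 and PROS1 and take up dying cells or support survival. AXL (gene identifier 558, chromosome 19, 41219223 to 41261767) was at 495, 478 and 461 CPM with control-siRNA and at 388, 381 and 358 CPM with TAZ-siRNA. It fell to 78.6% of control-siRNA (log2 fold change -0.35 ± 0.06 SE, adjusted p = 0.00234, edgeR), with a gap between the groups, and passed the test without each library in turn.

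The other TAM receptors did not pass the test. MERTK was at 23.2, 21.95 and 21.7 CPM with control-siRNA and at 21.2, 19.6 and 21.2 CPM with TAZ-siRNA (log2 fold change -0.11 ± 0.06 SE, adjusted p = 0.241, edgeR). TYRO3 was at 25.3 to 25.9 and 23.5 to 26.4 CPM (log2 fold change -0.04 ± 0.06 SE, adjusted p = 0.692, edgeR), and its sign changed without TAZ-siRNA replicate 3.

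EGFR (gene identifier 1956, chromosome 7, 55019017 to 55211628) is the leading member of the ErbB subfamily, which drives growth in many carcinomas. It was at 642, 629.8 and 606 CPM with control-siRNA and at 557, 552 and 516 CPM with TAZ-siRNA, 86.6% of control-siRNA (log2 fold change -0.21 ± 0.06 SE, adjusted p = 0.0275, edgeR). The groups did not overlap in CPM, but the call was lost in 5 of the 6 fits without 1 library. In TPM they did overlap, since TAZ-siRNA replicates 1 and 2 were at 131 and 129.7 and control-siRNA replicate 3 at 129.

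ERBB2, the partner of the other ErbB receptors, which binds no known ligand itself, was at 47.0, 48.0 and 44.9 CPM with control-siRNA and at 57.2, 62.6 and 45.9 CPM with TAZ-siRNA. TAZ-siRNA replicate 3 lay among the controls and the test was not passed (log2 fold change 0.24 ± 0.10 SE, adjusted p = 0.104, edgeR). It passed with the replicate number as a block, a fit in which 20 receptors and 30.2% of all genes passed (18 and 33.4% with the GC and length correction added), and without TAZ-siRNA replicate 3. ERBB2 overlaps MIEN1, a membrane-anchored protein gene with 6548 counts against 18128. The neuregulin receptors ERBB3 and ERBB4 were scarce, at 1.92 to 2.84 and 0.515 to 0.996 CPM over all libraries, with adjusted p of 0.576 and 0.789.

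MET (gene identifier 4233, chromosome 7, 116672196 to 116798386) promotes scattering and invasion of epithelial cells. It was at 186, 177 and 167 CPM with control-siRNA and at 162, 158 and 143 CPM with TAZ-siRNA, 87.3% of control-siRNA (log2 fold change -0.20 ± 0.06 SE, adjusted p = 0.0412, edgeR). The gap between the groups was narrow and the call held only without TAZ-siRNA replicate 3. In TPM the groups overlapped, at 53.5 to 61.4 and 46.6 to 56.3. Its relative MST1R, the receptor of macrophage-stimulating protein, was at 22.4 to 23.5 and 22.7 to 26.4 CPM and did not pass (adjusted p = 0.255).

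The FGF receptors moved in both directions. FGFR1 (gene identifier 2260), the main receptor of the family in mesenchymal cells, was at 66.5, 65.8 and 65.9 CPM with control-siRNA and at 91.8, 91.9 and 90.8 CPM with TAZ-siRNA. It rose to 138% of control-siRNA (log2 fold change 0.47 ± 0.04 SE, adjusted p = 0.00012, edgeR), the smallest adjusted p among the receptors. The spread within each group was under 1 CPM (SD 0.401 and 0.599). The call held without each library in turn, and here TAZ-siRNA replicate 3 did not stand apart.

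FGFR4 (gene identifier 2264, chromosome 5, 177086915 to 177098144), a receptor of FGF19 and related factors, fell. It was at 16.0, 15.2 and 14.5 CPM with control-siRNA and at 11.4, 12.4 and 11.3 CPM with TAZ-siRNA, 76.8% of control-siRNA (log2 fold change -0.38 ± 0.07 SE, adjusted p = 0.00518, edgeR). It passed without each library in turn, and only limma on TPM left it above the threshold (adjusted p = 0.0562). FGFR3 was at 4.10 to 5.08 and 4.01 to 5.37 CPM (adjusted p = 0.883), and its sign was not stable. FGFR2 had 2 counts in all.

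In the PDGFR subfamily, receptors of mesenchymal growth factors and of the cytokines of blood cell precursors, PDGFRB rose. PDGFRB (gene identifier 5159, chromosome 5, 150113839 to 150155845) was at 12.7, 12.8 and 15.0 CPM with control-siRNA and at 18.5, 17.1 and 19.2 CPM with TAZ-siRNA, 135% of control-siRNA (log2 fold change 0.44 ± 0.08 SE, adjusted p = 0.00493, edgeR). TAZ-siRNA replicate 3 was the highest library here, and the call held without each library in turn. PDGFRA, CSF1R and KIT were at 0.105 to 1.54 CPM over all libraries and did not pass (adjusted p of 0.256, 0.622 and 0.883).

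DDR1 (gene identifier 780, chromosome 6, 30880958 to 30900156), a collagen receptor, was at 45.1, 43.5 and 43.8 CPM with control-siRNA and at 65.3, 67.4 and 56.1 CPM with TAZ-siRNA. It rose to 143% of control-siRNA (log2 fold change 0.51 ± 0.07 SE, adjusted p = 0.000777, edgeR). The groups stood well apart and the call held without each library in turn. The other collagen receptor, DDR2, was at 1.99, 2.47 and 2.59 CPM with control-siRNA and at 1.76, 1.72 and 2.09 CPM with TAZ-siRNA, and did not pass (adjusted p = 0.166).

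PTK7, a receptor with an inactive kinase that acts in planar cell polarity, was at 41.7, 42.3 and 41.3 CPM with control-siRNA and at 47.9, 53.7 and 44.5 CPM with TAZ-siRNA (117% of control-siRNA, log2 fold change 0.22 ± 0.07 SE, adjusted p = 0.0432, edgeR). LMTK2, a membrane kinase of endosomal traffic, was at 61.6, 60.8 and 56.2 CPM with control-siRNA and at 73.4, 72.3 and 62.8 CPM with TAZ-siRNA (117%, log2 fold change 0.22 ± 0.07 SE, adjusted p = 0.0379, edgeR). Both calls held only without TAZ-siRNA replicate 3, and LMTK2 overlapped between the groups in TPM. LMTK3, of the same subfamily, was at 1.72, 1.41 and 1.19 CPM with control-siRNA and at 2.21, 3.28 and 2.15 CPM with TAZ-siRNA (176%, adjusted p = 0.0209, edgeR), and held in 3 of the 6 fits without 1 library.

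The insulin receptor subfamily, which controls metabolism and growth, did not pass in the fit to all libraries. IGF1R was at 82.8, 75.9 and 71.97 CPM with control-siRNA and at 98.8, 105 and 72.7 CPM with TAZ-siRNA (log2 fold change 0.26 ± 0.13 SE, adjusted p = 0.210, edgeR). INSR showed a like arrangement, at 28.7, 27.6 and 24.5 CPM and at 33.5, 36.6 and 25.2 CPM (log2 fold change 0.24 ± 0.13 SE, adjusted p = 0.216, edgeR). In both, TAZ-siRNA replicate 3 lay within the control range and the other TAZ-siRNA libraries above it. Both passed without that library, and INSR also with the replicate number as a block.

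RYK, abundant but with an inactive kinase, was at 64.0, 66.2 and 63.4 CPM with control-siRNA and at 67.0, 65.3 and 63.7 CPM with TAZ-siRNA (log2 fold change 0.02 ± 0.05 SE, adjusted p = 0.842, edgeR). ROR1, a WNT5A receptor, was at 29.2 to 34.2 and 27.5 to 34.3 CPM (log2 fold change -0.04 ± 0.09 SE, adjusted p = 0.760, edgeR), and ROR2 had at most 23 counts. STYK1 was at 9.13 to 10.6 and 9.53 to 10.3 CPM (adjusted p = 0.987). LTK, a relative of ALK, was at 5.85 to 6.69 and 5.15 to 6.499 CPM (log2 fold change -0.16 ± 0.11 SE, adjusted p = 0.355, edgeR). For RYK and STYK1 the fitted change was near 0 and its sign moved with the setting.

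Receptors of endothelium and neurons were near absent. KDR, the main VEGF receptor of endothelium, was at 0.466 to 0.852 CPM over all libraries (adjusted p = 0.568), and NTRK2, the receptor of BDNF, at 0.123 to 0.365 CPM (adjusted p = 0.849). TIE1, an endothelial receptor, had 16, 11 and 11 counts with control-siRNA and 6, 0 and 6 with TAZ-siRNA. All TAZ-siRNA libraries were under the filter's cutoff, so TIE1 was tested only through the controls. The counts did not overlap, but the test was not passed (adjusted p = 0.0877, edgeR).

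Letters near the start sites of the receptors were examined next, because TAZ acts through TEAD factors, which bind GGAATG, often beside AP-1, which binds TGANTCA. Windows of 300 bases, 250 before to 50 after each RefSeq start on GRCh38.p14, were available for 51 of the 57 receptors. On either strand GGAATG was in the windows of 8 of the 51 (15.7%, beside 16.7% of 27305 genes), and TGANTCA in those of 7 (13.7%, beside 9.37%). Per window the shares over all 35116 windows were 14.03% and 7.71%. The end of GGAATG can share letters with the start of TGANTCA, but no match of one overlapped a match of the other in the receptors' windows.

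Of the 18 receptors that changed, 17 had a window, and EPHA2, EGFR, AXL, DDR1 and FGFR4 had GGAATG in at least 1 window. Stretches around it are shown for the first 4 as examples of where it lies relative to the start used, with GGAATG or its reverse complement CATTCC in capitals, 5′ to 3′ on the strand of the gene.
EPHA2, chr1:16156110-16156169, minus strand: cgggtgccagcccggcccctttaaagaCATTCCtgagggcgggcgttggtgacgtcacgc
AXL, chr19:41226516-41226575, plus strand: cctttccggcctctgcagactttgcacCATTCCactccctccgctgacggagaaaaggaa
EGFR, chr7:55109713-55109742, plus strand: gacaaattctatCATTCCtttgggcctagg
DDR1, chr6:30882770-30882799, plus strand: ggcctggggtgtGGAATGtcccaccagggt

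For EPHA2 the letters began 73 bases before the start of its only window, and the stretch lay outside annotated exons, within the span of the antisense gene EPHA2-AS1 (GENCODE). The EPHA2 RNA rose. For AXL they began 212 bases before a second start inside the gene, outside annotated exons, and the transcript from that start made 2.2 to 6.0% of AXL TPM over all libraries. For EGFR they began 114 bases before a start inside the gene that gave at most 0.656% of EGFR TPM, in a stretch that GENCODE annotates as untranslated exon of EGFR. For DDR1 they began 152 bases before a start that gave 0 to 10.3% of DDR1 TPM, also in untranslated exon, and for FGFR4 the letters began at the main start itself. The main starts of AXL and EGFR had none in these windows. A match of letters is a description and shows no binding.

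The ligands of these receptors were counted from a list of 71 genes, of which 45 were tested and 19 passed (42.2%, beside 22.1% of all genes tested), 11 higher and 8 lower. The tested ligands had a median of 0.02 on the log2 scale. Of the ErbB ligands, TGFA was at 96.2, 98.0 and 101 CPM with control-siRNA and at 137, 139 and 126 CPM with TAZ-siRNA (log2 fold change 0.44 ± 0.05 SE, adjusted p = 0.000335, edgeR). EREG (133% of control-siRNA, adjusted p = 0.00686) and NRG2, a neuregulin (177%, adjusted p = 0.00425), also rose. The 5 other tested ErbB ligands did not pass. These were EGF, AREG, HBEGF, BTC and NRG1, at adjusted p of 0.965, 0.919, 0.342, 0.226 and 0.589 (edgeR). HBEGF and NRG1 averaged 217 and 209 CPM with control-siRNA and 196 and 201 CPM with TAZ-siRNA. TGFA and EREG bind EGFR, which was lower in the same libraries, and NRG2 binds ERBB3 and ERBB4.

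Among ephrins, EFNB2, which binds EPHB4, was at 51.4, 46.9 and 48.0 CPM with control-siRNA and at 79.6, 70.5 and 80.0 CPM with TAZ-siRNA (157%, log2 fold change 0.65 ± 0.06 SE, adjusted p = 0.000167, edgeR). EFNA5 fell to 84.2% of control-siRNA (adjusted p = 0.0414), a call held in 2 of the 6 fits without 1 library and with overlap in TPM, and the 6 other tested ephrins did not pass. GAS6, the ligand of AXL, fell with its receptor, from 20.3, 18.8 and 18.8 CPM to 12.3, 12.3 and 11.9 CPM (63.0%, log2 fold change -0.67 ± 0.07 SE, adjusted p = 0.000188, edgeR). PROS1, which binds TYRO3 and MERTK, rose to 128% (adjusted p = 0.00399).

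The PDGF ligands divided. PDGFB was at 9.48, 8.69 and 8.98 CPM with control-siRNA and at 2.81, 4.34 and 3.80 CPM with TAZ-siRNA (40.3%, log2 fold change -1.32 ± 0.14 SE, adjusted p = 0.000245, edgeR). PDGFA rose to 128% (adjusted p = 0.00617) and PDGFC was at 89.6% in CPM (adjusted p = 0.0332, held in 1 of the 6 fits without 1 library). In TPM PDGFC overlapped between the groups, with means of 68.14 and 68.13. Of the FGF ligands, FGF5 fell to 70.2% (adjusted p = 0.0129, held in 4 of the 6 fits without 1 library). FGF1 fell from 0.618 to 0.855 CPM with control-siRNA to 0.206 to 0.286 CPM with TAZ-siRNA (adjusted p = 0.00391). IGF2, a ligand of IGF1R and INSR, had 39, 35 and 20 counts with control-siRNA and 8, 9 and 14 with TAZ-siRNA (adjusted p = 0.0133, held in 3 of the 6 fits without 1 library).

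Ligands also changed whose receptors were below 1 TPM here. VEGFA, the main driver of blood vessel growth, rose to 128% of control-siRNA (303, 306 and 307 CPM against 384, 397 and 392 CPM, adjusted p = 0.000964) and PGF to 133% (adjusted p = 0.00138). ANGPT1 rose to 149% (adjusted p = 0.0337, held in 3 of the 6 fits without 1 library) and the neurotrophin BDNF fell to 73.7% (adjusted p = 0.000564). AGRN, a ligand of the MuSK complex, rose to 122.9% (adjusted p = 0.0234, held in 1 of the 6 fits without 1 library). WNT5A, a ligand of the expressed receptors ROR1 and RYK, rose to 143% (adjusted p = 0.00243).

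Of 40 adaptors and effectors, 39 were tested and 14 passed (35.9%, beside 22.1% of all genes tested), 10 of them higher and 4 lower, and the median of the log2 fold changes was 0.06. The adaptors SHC3 (206% of control-siRNA, adjusted p = 0.000205) and SHC4 (192%, adjusted p = 0.00882) rose, the first from 4.65, 3.95 and 4.16 CPM to 9.66, 8.48 and 8.13 CPM. PIK3R3, a regulatory subunit of PI3 kinase, rose to 175% (adjusted p = 0.00074), PLCG2, a phospholipase, to 144% (adjusted p = 0.000327), and the exchange factor SOS1 to 131% (adjusted p = 0.00139). The PI3 kinase subunits PIK3CB (131%, adjusted p = 0.00364) and PIK3R2 (121%, adjusted p = 0.0196, held in 1 of the 6 fits without 1 library) rose too. The main adaptor SHC1 was at 235, 244 and 258 CPM with control-siRNA and at 199, 187 and 234 CPM with TAZ-siRNA and fell (84.2%, adjusted p = 0.0475), a call that held in 1 of the 6 fits without 1 library. IRS1, the adaptor of the insulin receptor, fell to 82.3% (adjusted p = 0.0365), with groups that overlapped in CPM and in TPM and a call held in 3 of the 6 fits without 1 library.

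Of 31 negative regulators, 30 were tested and 11 passed (36.7%, beside 22.1% of all genes tested), 9 of them higher and 2 lower (beside 11.9% and 10.2%), and the median of the log2 fold changes was 0.09. ERRFI1, a feedback inhibitor of EGFR, was at 1373, 1338 and 1287 CPM with control-siRNA and at 1856, 1806 and 1774 CPM with TAZ-siRNA (136%, log2 fold change 0.44 ± 0.06 SE, adjusted p = 0.000685, edgeR). SPRY4 (143%, adjusted p = 0.00147), SPRED3 (144%, adjusted p = 0.000549) and IL17RD (145%, adjusted p = 0.00278), which damp signalling to ERK, rose as well. PTPRJ, a receptor phosphatase, was at 90.6, 89.4 and 84.7 CPM with control-siRNA and at 159, 180 and 116 CPM with TAZ-siRNA (172%, adjusted p = 0.0142, edgeR), and this call held in 4 of the 6 fits without 1 library. CBLB, a ubiquitin ligase, rose to 126% (adjusted p = 0.00227), and the adaptor GRB10 to 123.4% (adjusted p = 0.00274). The phosphatase PTPN2 (84.4%, adjusted p = 0.00806) and the adaptor GRB14 (60.9%, adjusted p = 0.0477, held in 1 of the 6 fits without 1 library) fell, and both overlapped between the groups in TPM.

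**Figure D5:**
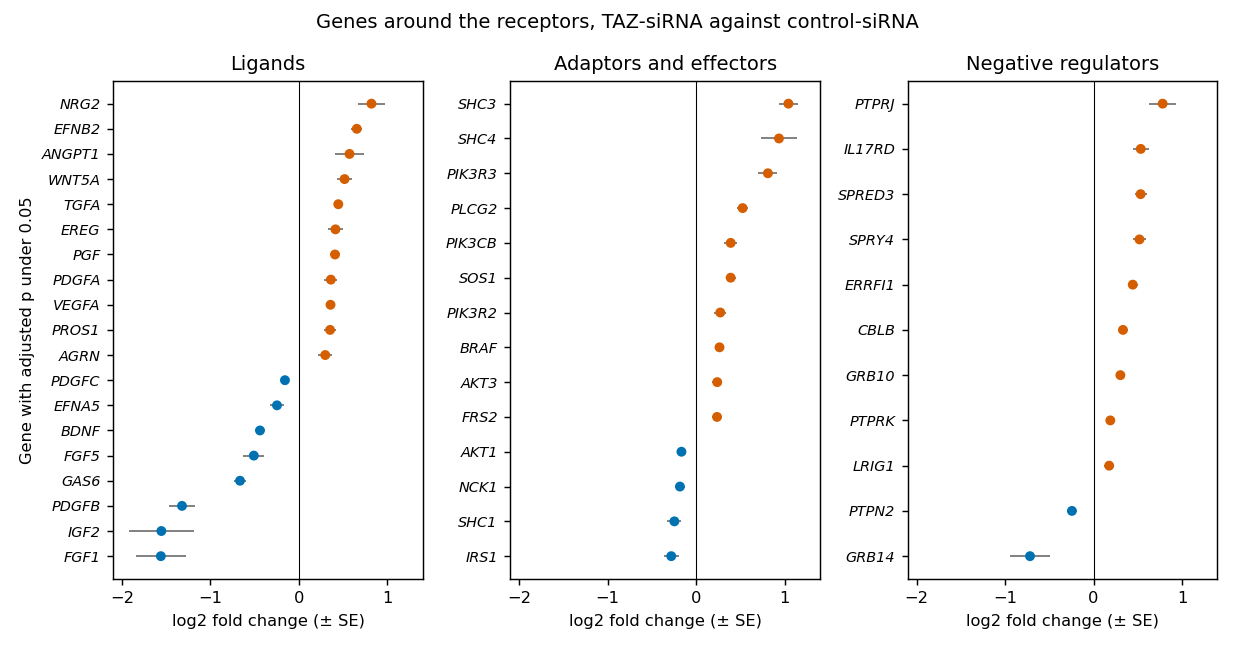
The log2 fold change with its standard error of the ligands, adaptors and effectors, and negative regulators with an adjusted p under 0.05 (orange, rose; blue, fell). Ligands lie on both sides of zero, with FGF1, IGF2 and PDGFB lowest, and 9 of the 11 negative regulators lie to the right.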

How the data were processed

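RNA-seq of 6 libraries was analysed, 3 with control-siRNA and 3 with TAZ-siRNA. The authors made libraries with a stranded mRNA kit, read paired ends of 100 bases, trimmed the reads, aligned them with HISAT2 to GRCh38 and quantified genes of RefSeq with StringTie. The submitters' processing notes also name Bowtie 0.12.2 and the mouse build mm8, whose part in these files is not given in the sources used here. The estimated counts that the authors deposited came from transcript coverage and are already whole. In the deposited FPKM values the authors allowed for length and sequencing depth. In the deposited TPM values they allowed for length and brought every library to 1 shared total. Whether counting used strand is not given in the sources used here.

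Groups and replicate numbers (1 to 3) came from the sample descriptions. The sample titles count the same libraries in the same order from rep3 to rep5, so TAZ-siRNA replicate 3 here is titled rep5. Gene counts were compared with edgeR 4.0.16 (R 4.3.3), using TMM factors, filterByExpr (minimum count 10) and robust quasi-likelihood tests with Benjamini-Hochberg adjustment over 16966 genes. The SE given with edgeR was derived as the absolute log2 fold change over the square root of the test's F statistic. CPM values are on TMM-normalized library sizes. The biological coefficient of variation was 8.04%, and floors of 3 counts cover counting error only. A correction for GC content and length used values present for 89.7% of genes tested and 100.0% of the receptors tested. Methods were tested on simulated data. Other settings used DESeq2 1.42.0 and limma 3.58.1. p-values measure the spread between these cell preparations.

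All 57 members are accounted for. Values per library are given for members that passed the test and for the most abundant ones. From the lists of ligands, adaptors and effectors, and negative regulators, genes with an adjusted p under 0.05 and a mean of at least 1 CPM are named, up to 8 per list by size of change, with ligands of the changed receptors added. IGF2, AGRN, PGF, VEGFA, BDNF, PROS1, NRG1, SHC1 and PTPN2 fall outside this rule and were added after their values were seen. The members and lists were chosen with earlier results of these data known. Promoter windows came from RefSeq (GRCh38.p14), and a deposited GRCh38 transcript was assigned to a window's start when it began within 100 bases of it. Tables were handled with Python 3.11.15.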

Additional observations from a re-analysis of the deposited data

How the results depend on the processing

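Of 318 values of 29 named receptors under settings other than leaving out a library, 275 kept direction and side of the threshold, 32 lost and 3 gained the call, and 8 turned sign. Of 174 with 1 library left out the numbers were 113, 47, 4 and 10. DESeq2 size factors, upper-quartile factors and the correction for GC and length each gave 18 receptors, the DESeq2 test, no filter and a filter of 10 counts in every library 17. limma on log2(FPKM + 1), log2(FPKM + 0.1) and log2(TPM + 0.1) gave 8, 9 and 8 receptors, beside 16.6, 16.7 and 15.0% of all genes. It gave 7, 7 and 8 adaptors and effectors, and 7, 7 and 7 negative regulators. An adjusted p under 0.01 left 7 receptors, 7 adaptors and effectors and 7 negative regulators, beside 10.1% of all genes. Leaving out 1 library gave 8 to 23 receptors, 13 to 24 ligands, 7 to 22 adaptors and effectors and 7 to 14 negative regulators. The highest numbers came without TAZ-siRNA replicate 3, and the share of all genes that passed ranged from 11.2 to 33.7% in these fits. The number of receptors with groups apart was 21 in CPM and 13 in TPM (39.6 and 35.1% of all genes), a setting chosen after seeing the data. Expressed receptors numbered 27 at 0.5 TPM, 23 at 2 TPM, 23 at 1 FPKM and 25 or 26 without 1 control library.

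The replicate number as a block gave 20 receptors (16 higher), 20 ligands, 19 adaptors and effectors, 13 negative regulators and 5122 of all genes, against 3749 without it. With the block and the GC and length correction 18 receptors passed. Same-numbered libraries deviated with correlations of -0.02, 0.01 and 0.07, and differently numbered ones with -0.095 to 0.100. With 3 libraries per group this cannot tell whether same-numbered libraries shared a batch. The labels give only the number, so the pairing is not used in the main fit.

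The sign of near-zero changes turned. The FGFR3 log2 fold change (-0.03) was at 0.00245, 0.00341 and 0.0483 with limma on log2(FPKM + 1), log2(FPKM + 0.1) and log2(TPM + 0.1), and -0.14 to 0.0618 without 1 library. The TYRO3 log2 fold change (-0.04) was at 0.00800 with limma on TPM and -0.0857 to 0.00490 without 1 library. The STYK1 log2 fold change was at -0.00227 with upper-quartile factors, -0.00129 with no filter, -0.0162 with the GC and length correction and -0.0140 with that and the block, and -0.0610 to 0.0431 without 1 library. The ROR1 log2 fold change ranged from -0.11 to 0.0410 and the RYK log2 fold change from -0.00103 to 0.0379 without 1 library. The cause was not tested. EPHB6, with 0 to 35 counts per library, has a log2 fold change of 2.40 with an SE of 0.56.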
